A study of Mus musculus with 12 samples.

Results

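The constitutive subunits of the proteasome, measured in cultured mouse microglia (macrophages that live in the brain), were represented by 37 genes of 19938 with a probe set of their own on the Affymetrix Mouse Gene 1.0 ST array. A gene was taken where its symbol begins with Psma, Psmb, Psmc or Psmd and a number. The interferon-inducible Psmb8, Psmb9 and Psmb10 and pseudogene names were left out, and the probe set with the highest mean signal stood for each gene. All 37 passed the filter on dim genes, which left 15273 genes for testing. The rule uses symbols and signal level, but it was set with earlier results of these data known.

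One genotype was wild type, and the other carries the label of a Tlr4 knockout, that is, cells without the receptor that senses bacterial lipopolysaccharide. Both genotypes were held for 24 h in low oxygen and glucose (ischemia) or in control conditions, and all cells, controls included, were then returned to normal oxygen and glucose for 24 h (reperfusion). There were 3 arrays, replicates 1 to 3, in each of the 4 groups, and strain and age of the mice are not in the labels. Nothing in the labels tells if replicates are separate cultures or animals, and the p-values therefore cover only the spread among these 12 samples, which may be technical.

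The proteasome is the cell's main protease for proteins tagged with ubiquitin. Its core particle is a barrel of alpha rings, which gate the entrance, and beta rings, which carry the cutting sites. The regulatory particle caps the barrel: its base holds a ring of ATPases that unfold the substrate, and its lid removes the ubiquitin chain. In macrophages, and in microglia among them, interferon is known to replace the constitutive cutting subunits by the immunoproteasome subunits.

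The signal of Tlr4 did not separate the genotypes. It was 8.76 ± 0.12 (log2, SD, n = 3) in wild-type control, 8.71 ± 0.26 in wild-type ischemia, 8.66 ± 0.29 in the arrays labelled knockout control and 8.76 ± 0.17 in those labelled knockout ischemia. Whether its probes lie in the deleted part of the gene is not given, so the second genotype is called knockout-labelled here, and every direction between genotypes rests on that label. The microglial markers Csf1r and Cd68 had mean signals of 12.27 and 13.15, whereas P2ry12 (5.75) and Tmem119 (6.51) lay near the threshold of 5.36 for dim genes. The 10 markers of heart and skeletal muscle, a tissue that the extraction protocol names in place of microglia, had means of 5.47 to 7.13. The source name of the wild-type ischemia arrays reads as control, and their titles, which put them under hypoxia, were followed. Over all probe sets, knockout-labelled control replicate 3 had the lowest median correlation with the other arrays, at 0.976, against 0.982 or more for the rest.

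Of the 37 genes, 14 code for the core particle (Psma1 to Psma7 and Psmb1 to Psmb7) and 17 for the regulatory particle (Psmc1 to Psmc6 and 11 Psmd genes). The other 6 belong to neither class. Psmd5, Psmd9 and Psmd10 code for chaperones that assemble the base and leave the finished particle. Psma8 is a testis form of an alpha subunit, Psmb11 is the beta subunit of the thymus, and Psmc3ip is no proteasome subunit but a meiotic recombination factor that the symbol rule takes in.

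The mean signals of the 31 subunit genes lay between 8.82 and 11.47 on the log2 scale. The highest signals were those of Psmd2 (11.47), Psmd8 (11.13) and Psmb6 (10.61), and the lowest among the 37 genes were those of Psmb11 (6.03), Psma8 (6.19) and Psmc3ip (6.27). Signals of different probe sets differ in their response to RNA, so these values place the genes above the dim threshold and do not rank their RNA. Of these genes, 5 had more than 1 probe set (Psma3 with 3, and Psma5, Psmb3, Psmc1 and Psmd2 with 2 each). The 3 probe sets of Psma3 moved alike, by 0.30 to 0.36 after ischemia in wild-type and by 0.47 to 0.49 in knockout-labelled cells. In the wild type the 2 probe sets gave 0.25 and 0.20 for Psma5, 0.38 and 0.28 for Psmb3 and 0.13 and 0.24 for Psmc1, while in knockout-labelled cells they gave 0.04 and -0.05 for Psma5 and 0.03 and -0.02 for Psmb3. The second probe set of Psmd2 gave -0.06 in wild-type and 0.20 in knockout-labelled cells.

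The sequence upstream of the start was read for 30 of the 37 genes in RefSeq (GRCm38.p6), and not for Psma8, Psmb1, Psmb2, Psmb7, Psmc3, Psmd3 and Psmd7. The 5 windows shown belong to the 3 genes called in the paired fit described further on for which RefSeq gave a window (Psma7, Psma2 and Psmd14), to Psmb3, whose change differed most between genotypes among core genes, and to Psmd2, which moved least in the wild type. Each holds the 250 bases before the start, read 5′ to 3′ on the gene's strand. Capitals mark CCAAT or CCGGAAG on either strand (ATTGG and CTTCCGG where the other strand holds it). The windows lie at chr2:180042465-180042714 (minus strand) for Psma7, chr13:14612992-14613241 (plus strand) for Psma2, chr11:97703184-97703433 (plus strand) for Psmb3, chr2:61711444-61711693 (plus strand) for Psmd14 and chr16:20651402-20651651 (plus strand) for Psmd2.
Psma7: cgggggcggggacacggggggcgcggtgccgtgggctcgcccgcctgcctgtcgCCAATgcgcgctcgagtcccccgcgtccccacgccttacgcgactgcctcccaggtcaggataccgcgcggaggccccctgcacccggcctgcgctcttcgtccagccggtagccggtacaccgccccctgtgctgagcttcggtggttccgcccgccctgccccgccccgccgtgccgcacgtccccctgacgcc
Psma2: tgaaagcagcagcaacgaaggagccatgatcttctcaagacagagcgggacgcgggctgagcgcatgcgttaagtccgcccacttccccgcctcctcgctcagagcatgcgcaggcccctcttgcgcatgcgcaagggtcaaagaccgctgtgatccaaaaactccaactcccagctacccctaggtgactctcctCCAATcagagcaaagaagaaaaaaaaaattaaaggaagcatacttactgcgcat
Psmb3: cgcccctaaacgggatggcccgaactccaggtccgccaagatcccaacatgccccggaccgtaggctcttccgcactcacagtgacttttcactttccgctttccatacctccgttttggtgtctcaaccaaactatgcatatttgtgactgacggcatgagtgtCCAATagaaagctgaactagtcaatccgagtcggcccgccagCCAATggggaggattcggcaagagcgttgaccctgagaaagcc
Psmd14: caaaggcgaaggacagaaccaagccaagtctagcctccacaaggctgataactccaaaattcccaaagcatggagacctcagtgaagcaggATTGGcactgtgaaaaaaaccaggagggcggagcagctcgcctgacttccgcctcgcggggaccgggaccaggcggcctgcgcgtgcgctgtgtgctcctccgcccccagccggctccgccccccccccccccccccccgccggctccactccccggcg
Psmd2: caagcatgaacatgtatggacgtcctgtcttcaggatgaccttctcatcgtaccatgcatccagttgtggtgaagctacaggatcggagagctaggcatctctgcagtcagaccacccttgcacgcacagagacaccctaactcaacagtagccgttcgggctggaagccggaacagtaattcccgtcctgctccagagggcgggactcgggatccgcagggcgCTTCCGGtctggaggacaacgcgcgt

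The capitals begin 196 bases before the start in Psma7, 54 in Psma2, 159 in Psmd14 and 26 in Psmd2. Psmb3 holds CCAAT at 85 and again at 43 bases before the start. The search covered 7 motifs on both strands of all windows. CCAAT, the letters bound by the factor NF-Y, was present in 6 of 11 core windows (Psma1, Psma2, Psma3, Psma6, Psma7 and Psmb3) and in 4 of 14 regulatory windows (Psmc1, Psmc2, Psmd4 and Psmd14), against 37.5% of all 27025 genes with a window. CCGGAAG, a form of the ETS family's letters, was present in 1 core window (Psma6) and in 8 regulatory windows (Psmc1, Psmc2, Psmc6, Psmd2, Psmd4, Psmd6, Psmd11 and Psmd12), against 7.83% of all genes. GGGCGG, the letters of Sp factors, was in 5 core and 9 regulatory windows, against 35.4%.

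The antioxidant response element, through which Nfe2l1 and Nfe2l2 act on proteasome genes, was searched as TGACNNNGC and as the looser TGANNNNGC, which contains it. The strict form was in 2 core windows (Psmb5 and Psmb6) and 2 regulatory windows (Psmc6 and Psmd12), against 11.5% of all genes. The loose form was in 5 core and 4 regulatory windows, against 38.7%. TATAAA was in 1 core and 2 regulatory windows, against 14.3%, and TGACGTCA was in none of these windows, against 1.77% of all genes. These counts describe letters in a window and show no binding.

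In wild-type microglia, all 14 core genes had a higher mean after ischemia and reperfusion than in control cells, by 0.13 (Psmb5) to 0.46 (Psmb2) on the log2 scale. All 17 regulatory genes also had a higher mean, but by less, from 0.00 (Psmd2) to 0.28 (Psmd4). The median change was 0.35 over the core genes and 0.13 over the regulatory genes, against 0.01 over all genes tested and 0.08 over the 3639 genes with a signal in the range of the subunits. The 10 largest changes among the 31 subunit genes were all those of core genes. In limma over all 12 arrays without pairing, 0 of the 37 genes passed an adjusted p of 0.05, where 0.0131% of all genes tested did, and 8 of the 37 had an unadjusted p under 0.05 (14.7% of all genes). The smallest adjusted p among them was 0.256, of Psma7. In these bulk samples a change in the mix of cells and a change in RNA per cell cannot be told apart.

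Markers of other cell types were read on the same arrays. The 4 measured fibroblast and mural markers above the dim threshold, of 6 listed, all had a lower mean after ischemia in the wild type (median -0.35, from -0.48 for Col1a1 to -0.25 for Pdgfrb), and their mean signal lay at 6.95 to 7.37 in control and at 6.64 to 6.89 after ischemia. None of the 4 passed in limma (smallest paired adjusted p = 0.0861), and their median was -0.15 in knockout-labelled cells. A lower median was not particular to these markers. The wild-type medians above the threshold were -0.26 for astrocyte, -0.12 for neuron, -0.10 for oligodendrocyte and -0.10 for muscle markers. Single astrocyte markers ran from -0.35 to 0.40 and muscle markers from -0.26 to 0.02. None of these passed in the paired limma fit. Of the 3 endothelial markers above the threshold, Flt1 changed by 0.42 and Cldn5 by -0.41 in the wild type, both past the threshold in the paired limma fit (adjusted p = 0.0255 and 0.0416), and Kdr by 0.40, which did not pass. The 13 microglial markers had a median change of 0.12 in the wild type and ran from -0.25 to 0.52. Their median was -0.07 in knockout-labelled cells, with a range from -0.61 to 0.28. Their smallest adjusted p in the paired limma fit was 0.0230 in wild-type and 0.0182 in knockout-labelled cells, both past the threshold. The part of these markers in the proteasome result was not tested.

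**Figure D1:**
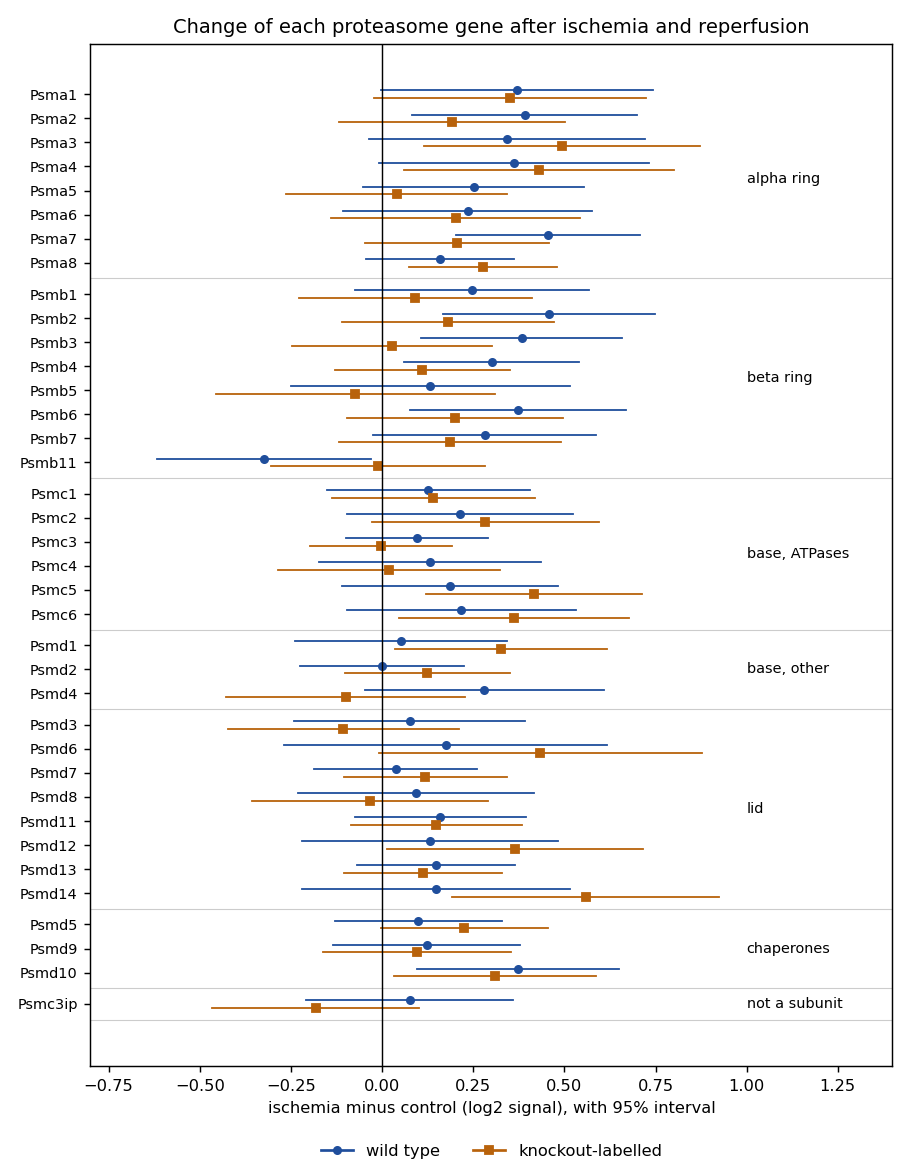
Change of each of the 37 genes after ischemia (log2 signal, ischemia minus control), grouped by place in the proteasome, with the 95% interval of limma without pairing (circles, wild type; squares, knockout-labelled; n = 3 arrays a group). The alpha and beta rings lie between 0.13 and 0.46 in the wild type, apart from the thymus form Psmb11 at -0.32, and Psmd14 has the largest change in the knockout-labelled cells, at 0.56.

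Same-numbered arrays of a genotype deviated together from their group means, so a fit with the pair as a block was set beside the fit without it. In this paired limma fit 3 of the 37 genes rose in the wild type, all of them core genes, where 2.99% of all genes tested rose. The 3 were Psma7, Psma2 and Psmb2. Psmb3 (adjusted p = 0.0557), Psmd10 (0.0564) and Psma1 (0.0570) came next in the paired limma fit and did not pass.

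Psma7 codes for an alpha subunit. Its log2 signal was 8.72, 9.09 and 8.70 in wild-type control replicates 1 to 3 and 9.18, 9.44 and 9.27 in wild-type ischemia. Every ischemia array lay above every control array, and the change was 0.45 ± 0.12 (SE; 1.37-fold), higher in 3 of 3 pairs, with an adjusted p of 0.256 in limma without pairing and 0.0195 in the paired fit. The knockout-labelled values were 8.87, 8.92 and 9.04 in control and 9.16, 9.10 and 9.17 after ischemia. These groups did not overlap either, and their difference of 0.20 ± 0.12 did not pass in limma (adjusted p = 0.257 in the paired fit).

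Psma2, another alpha subunit, measured 8.77, 9.33 and 8.87 in wild-type control and 9.28, 9.62 and 9.23 after ischemia. The groups overlapped through control replicate 2, while each pair rose, by 0.51, 0.29 and 0.37. The change was 0.39 ± 0.14 (1.31-fold), with an adjusted p of 0.285 in limma without pairing and 0.0363 in the paired fit. The knockout-labelled arrays measured 9.11, 9.12 and 8.99 in control and 9.27, 9.26 and 9.28 after ischemia, a difference of 0.19 ± 0.14 without overlap and with an adjusted p of 0.286 in the paired limma fit.

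Psmb2 codes for a beta subunit without a cutting site. It measured 8.40, 8.97 and 8.53 in wild-type control and 9.18, 9.15 and 8.94 after ischemia, so that control replicate 2 lay just above ischemia replicate 3. The change was 0.46 ± 0.13 (1.37-fold), higher in 3 of 3 pairs, with an adjusted p of 0.268 in limma without pairing and 0.0427 in the paired fit. The knockout-labelled arrays had 8.62, 8.66 and 8.80 in control and 8.91, 8.87 and 8.84 after ischemia, all higher after ischemia, with a difference of 0.18 ± 0.13.

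The 3 paired calls depended on single pairs of arrays. Without wild-type pair 1 or pair 3, 0 of the 37 genes passed in the paired limma fit, and the calls over all genes tested fell from 570 to 143 and 248. Without pair 2 the genes called were Psma7, Psmb2 and Psmb6, among 488 over all genes. With quantile normalization of the deposited values, 0 of the 37 passed in the paired fit, against 384 over all genes.

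**Figure D2:**
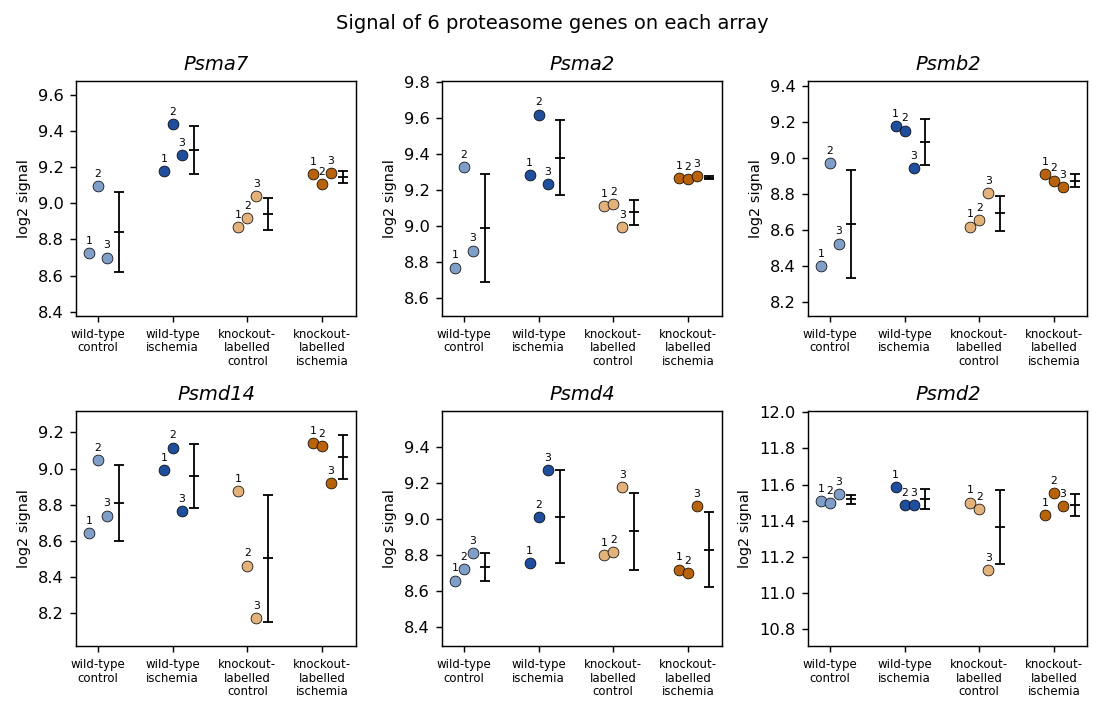
Log2 signal of Psma7, Psma2, Psmb2, Psmd14, Psmd4 and Psmd2 on each of the 12 arrays (points, with the replicate number), with the mean and SD of the 3 arrays of a group beside them; every panel spans 1.3 log2 units. Wild-type control replicate 2 is the highest of its group for Psma7, Psma2, Psmb2 and Psmd14, and knockout-labelled control replicate 3 is the lowest of its group for Psmd14 and Psmd2.

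The cutting subunits Psmb5, Psmb6 and Psmb7 had wild-type changes from 0.13 to 0.37, and no test compared them with each other. Psmb6, the caspase-like subunit, measured 10.24, 10.65 and 10.22 in wild-type control and 10.76, 10.67 and 10.81 after ischemia, with no overlap and a change of 0.37 ± 0.14. Psmb7, the trypsin-like subunit, changed by 0.28 ± 0.14. Psmb5, the chymotrypsin-like subunit, changed by 0.13 ± 0.18, the smallest value among the core genes. None of the 3 passed in limma (paired adjusted p = 0.0840, 0.144 and 0.475).

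Groups that did not overlap, with ischemia higher, were found in the wild type for 6 of the 37 genes (Psma7, Psmb3, Psmb4, Psmb6, Psmd11 and the chaperone gene Psmd10), where 9.38% of all genes tested did the same. Psmb11 alone had a lower, non-overlapping ischemia group (12.3% of all genes), by 0.32 ± 0.14 at a signal near the dim threshold. Higher values in all 3 same-numbered pairs were found for 12 of 14 core and 11 of 17 regulatory genes, against 25.8% of all genes. The regulatory genes that moved least were Psmd2 (0.00 ± 0.10), a scaffold of the base, Psmd7 (0.04 ± 0.10), the lid partner of the deubiquitinase, and Psmd1 (0.05 ± 0.13), the other base scaffold.

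The median wild-type change was 0.36 over the alpha ring and 0.30 over the beta ring. In the regulatory particle the medians were 0.16 over the 6 ATPases, 0.05 over the 3 other base genes and 0.14 over the 8 lid genes. Psmd4, the ubiquitin receptor of the base, had the largest regulatory change, at 0.28 ± 0.15, with values of 8.66, 8.72 and 8.81 in control and 8.75, 9.01 and 9.27 after ischemia. The chaperone gene Psmd10 lay in the range of the core genes, at 0.37 ± 0.13, and measured 9.29, 9.63 and 9.54 in control and 9.80, 9.83 and 9.95 after ischemia.

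Most proteasome genes also had a higher mean after ischemia in the knockout-labelled cells, with the alpha ring above the beta ring. The median change was 0.20 over the alpha ring and 0.11 over the beta ring. The ring means changed by 0.16, 0.29 and 0.37 (alpha) and by 0.13, 0.11 and 0.07 (beta) in pairs 1 to 3. The gap was widest in pair 3, which holds the control array with the lowest correlation with the others. The alpha mean minus the beta mean was -0.08, -0.17 and -0.47 in knockout-labelled control replicates 1 to 3. The median ischemia change in these cells was 0.19 over the core genes and 0.14 over the regulatory genes. This median was 0.00 over all genes tested and 0.08 over genes with a signal in the same range. Positive changes were found for 13 of 14 core genes, all but Psmb5 (-0.07), although Psma5 and Psmb3 had another probe set below 0, and for 13 of 17 regulatory genes, all but Psmc3 (0.00), Psmd8 (-0.03), Psmd4 (-0.10) and Psmd3 (-0.11). Of the 10 largest changes among the 31 subunit genes, 3 were those of core genes (Psma3, Psma4 and Psma1) and 7 those of regulatory genes (Psmd14, Psmd6, Psmc5, Psmd12, Psmc6, Psmd1 and Psmc2). In limma without pairing, 0 of the 37 genes passed, as did 0% of all genes tested. Of the 37, 9 had an unadjusted p under 0.05, against 8.73% of all genes.

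In the paired limma fit 1 of the 37 genes rose in the knockout-labelled cells, Psmd14, where 0.537% of all genes tested rose. Psmd14 is the lid's deubiquitinase, which cuts the ubiquitin chain off the substrate. It measured 8.87, 8.46 and 8.17 in knockout-labelled control and 9.14, 9.12 and 8.92 after ischemia, so that the groups did not overlap and the control arrays differed widely among themselves. The change was 0.56 ± 0.17 (1.47-fold), with an adjusted p of 0.560 in limma without pairing and 0.0401 in the paired fit. In the wild type it measured 8.64, 9.05 and 8.74 in control and 8.99, 9.12 and 8.77 after ischemia, a change of 0.15 ± 0.17 between overlapping groups. Its wild-type change ran from 0.05 to 0.27 when 1 array or pair was left out. Without knockout-labelled pair 2 or pair 3 the change of Psmd14 was 0.51 and 0.46, with an adjusted p of 0.364 and 0.304 in the paired limma fit. Without wild-type pair 2 or pair 3, which enter only the shared spread, the change stayed at 0.56 and the adjusted p was 0.0558 and 0.0503 in that limma fit.

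Psma3, an alpha subunit, changed by 0.49 ± 0.17 in the knockout-labelled cells, from 9.89, 9.52 and 9.29 to 10.05, 10.15 and 9.98. Psmc5, an ATPase of the base, changed by 0.42 ± 0.14, from 9.74, 9.66 and 9.26 to 9.98, 9.93 and 10.01. In both genes no ischemia array lay below a control array, and the paired limma fit gave adjusted p values of 0.0773 and 0.0981. Psmd6, a scaffold subunit of the lid, changed by 0.43 ± 0.20, and Psma4, an alpha subunit, by 0.43 ± 0.17. The testis form Psma8 had means of 5.94 ± 0.06 (SD) in control and 6.22 ± 0.06 after ischemia, a difference of 0.28 ± 0.09 (SE) at low signal, and Psmc3ip changed by -0.18 ± 0.13.

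Ischemia groups above and not overlapping control were found in the knockout-labelled cells for 13 of the 37 genes (4 core and 7 regulatory genes among them), against 7.94% of all genes tested, and none lay below, against 6.36%. Higher values in all 3 pairs were found for 11 of 14 core and 10 of 17 regulatory genes, against 20.8% of all genes. In knockout-labelled control replicate 3, the array with the lowest correlation with the others, 12 of the 37 genes had their lowest value of the 12 arrays (Psma3, Psma4, Psma6, Psmc1, Psmc2, Psmc5, Psmd1, Psmd2, Psmd6, Psmd10, Psmd12 and Psmd14). On the same array 10 genes had the highest value of the 3 arrays of that group, Psmb5, Psmb6 and Psmd8 among them. The shares of all genes tested that did the same were not counted, so neither count is a result particular to the 37 genes.

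**Figure D3:**
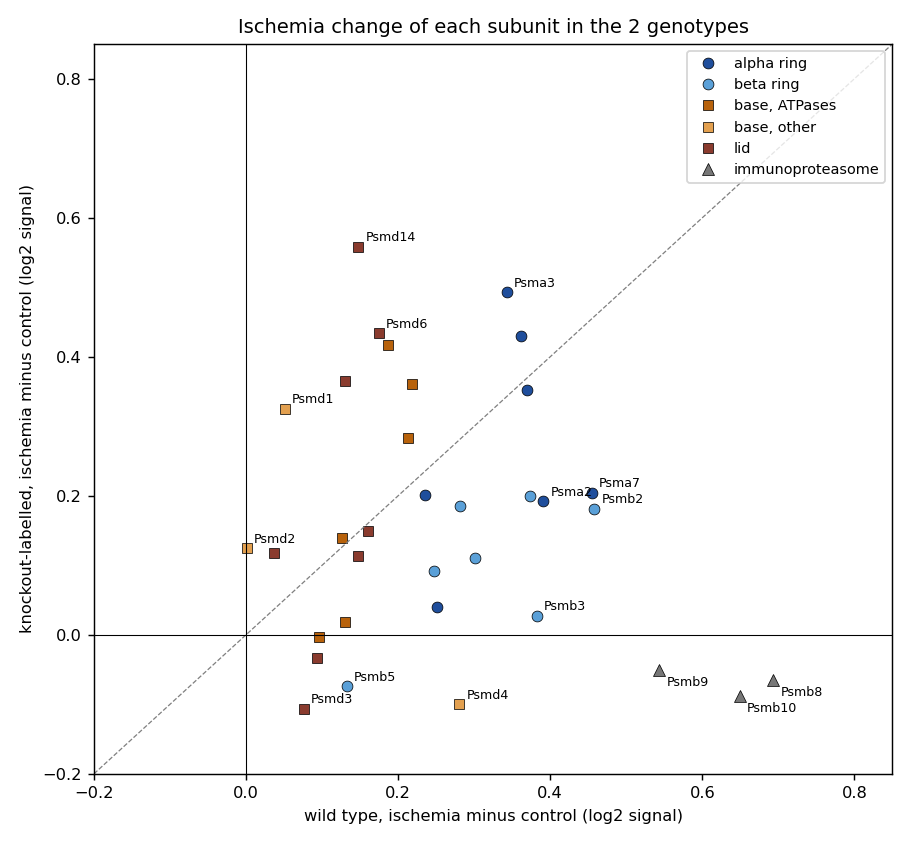
Ischemia change (log2 signal) of each of the 31 subunit genes, wild type on the horizontal and knockout-labelled on the vertical axis, with the 3 immunoproteasome genes; the dashed line marks equal change. All 7 beta ring genes lie below the line, Psmd14 lies above it at 0.15 and 0.56, and the immunoproteasome genes lie at 0.54 to 0.69 in the wild type and at or below -0.05 in the other genotype.

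The core was also set against the regulatory particle on each array, without a fit. The mean log2 signal of the core genes was 9.28, 9.69 and 9.29 in wild-type control replicates 1 to 3 and 9.70, 9.86 and 9.69 after ischemia. It was 9.54, 9.47 and 9.45 in knockout-labelled control and 9.68, 9.66 and 9.67 after ischemia. Wild-type control replicates 1 and 3 were the 2 lowest of the 12 arrays, and replicate 2 lay among the ischemia arrays.

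The regulatory mean was 9.54, 9.78 and 9.63 in wild-type control and 9.72, 9.88 and 9.75 after ischemia, which overlapped. In the knockout-labelled cells it was 9.65, 9.57 and 9.58 in control and 9.78, 9.78 and 9.79 after ischemia, which did not. The core mean minus the regulatory mean was -0.26, -0.08 and -0.34 in wild-type control and -0.01, -0.02 and -0.06 after ischemia. In the knockout-labelled arrays it lay between -0.13 and -0.10 in both conditions.

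The difference of the core and regulatory means thus moved by 0.25, 0.06 and 0.27 in the 3 wild-type pairs (mean 0.19 ± 0.11, SD) and by 0.01, -0.01 and 0.01 in the knockout-labelled pairs (mean 0.00 ± 0.01). No test was made of these means, because the genes were chosen with earlier results known. Without wild-type control replicate 2 the wild-type value was 0.26. The mean of the 13 measured microglial markers was also highest in that array among the wild-type controls, at 10.80 against 10.19 and 10.37, and its part in the result was not tested. The upper quartile of all probe sets lay at 8.13 to 8.17 in wild-type control and at 8.24 to 8.25 after ischemia. Quantile normalization gives all arrays the same quartiles. With it the wild-type class difference was 0.20, against 0.19 without it. The core median went from 0.35 to 0.26 and the regulatory median from 0.13 to 0.038. Beyond this refit the part of the quartile was not tested.

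**Figure D4:**
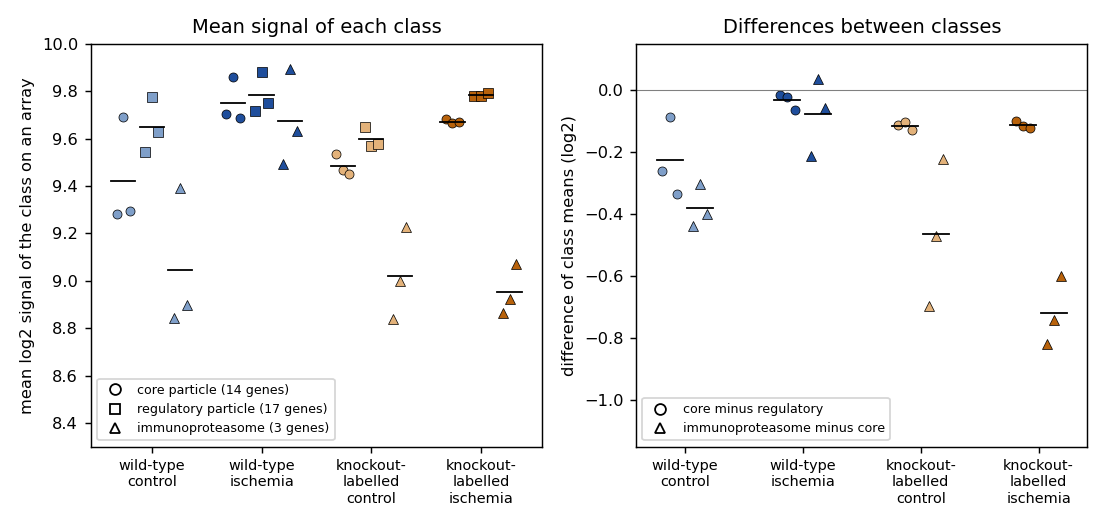
Left, mean log2 signal of the 14 core genes (circles), 17 regulatory genes (squares) and 3 immunoproteasome genes (triangles) on each array, with a line at the group mean; right, core minus regulatory mean and immunoproteasome minus core mean on each array. Core minus regulatory lies between -0.06 and -0.01 in wild-type ischemia and at -0.08 or lower in the other 3 groups.

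Between genotypes, the proteasome genes showed no difference that passed in either condition. For these comparisons the paired fit used a shared correlation within pairs in place of the block. In control cells 0 of 37 passed in limma, where 0.0589% of all genes tested did, and 0 in the paired fit, where 0.0917% did, and 2 had an unadjusted p under 0.05 (7.14% of all genes), Psma8 at -0.29 ± 0.09 and Psmd10 at -0.29 ± 0.13, knockout-labelled minus wild type. The median difference was 0.07 over the core genes and -0.07 over the regulatory genes, against 0.00 over all genes. All 7 beta ring genes had a higher mean in knockout-labelled control, by a median of 0.19, while the alpha ring had a median of -0.07. The largest positive differences were those of Psmd8 (0.22 ± 0.15), Psmb5 (0.21 ± 0.18), Psmd4 (0.20 ± 0.15) and Psmb6 (0.20 ± 0.14), and the largest negative one was that of Psmd14 (-0.31 ± 0.17). No gene of the 37 lay wholly above the wild type, against 5.37% of all genes, and 1, Psma8, lay wholly below, against 4.52%.

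After ischemia 0 of 37 passed between genotypes in limma, where 0.714% of all genes tested did, and 0 in the paired fit, where 0.989% did, and 1 had an unadjusted p under 0.05 (8.35% of all genes). That gene was the chaperone gene Psmd10, at -0.35 ± 0.13 with an adjusted p of 0.407 in limma. Its knockout-labelled ischemia arrays measured 9.56, 9.57 and 9.39 against 9.80, 9.83 and 9.95 in the wild type, without overlap. The median difference was -0.09 over the core genes and 0.02 over the regulatory genes, and the regulatory median fell on either side of 0 when 1 array was left out (-0.03 without wild-type ischemia replicate 1, 0.03 without wild-type ischemia replicate 2). Psmb2 (-0.22 ± 0.13) also lay wholly below the wild type and Psmd5 (0.13 ± 0.11) wholly above it, in all 4 genes below and 1 above, against 8.07% and 8.38% of all genes.

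The ischemia change itself did not differ detectably between genotypes for any of the 37 genes in limma, as in 0% of all genes tested, and 0 of the 37 had an unadjusted p under 0.05 (2.9% of all genes). The paired limma fit called 0 of the 37 as well, where 0.308% of all genes passed. The smallest p without pairing was that of Psmb3, whose change was 0.36 lower in the knockout-labelled cells, with a 95% interval from -0.74 to 0.03 and an adjusted p of 0.549 in the paired limma fit. Psmb3 measured 9.22, 9.48 and 8.96 in wild-type control, 9.60, 9.71 and 9.50 after ischemia, 9.35, 9.48 and 9.41 in knockout-labelled control and 9.47, 9.30 and 9.55 after ischemia. The wild-type groups did not overlap, and the knockout-labelled groups did.

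Psmd14 had the largest opposite value, a change 0.41 higher in the knockout-labelled cells with an interval from -0.11 to 0.93, followed by Psmb11 (0.31), Psmd1 (0.27) and Psmd6 (0.26). Psmd4 had the lowest value, -0.38, with an interval from -0.84 to 0.08. The median of this difference was -0.18 over the core genes and 0.07 over the regulatory genes, against 0.01 over all genes tested. The difference was below 0 in 12 of 14 core genes and above 0 in 10 of 17 regulatory genes. It was above 0 in 51.6% of all genes tested. Without wild-type control replicate 2 the medians were -0.31 and -0.03.

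Other genes of the pathway, in 8 lists, gave 38 measured genes. In wild-type cells 32 of the 38 had a higher mean after ischemia, where 52.4% of all genes tested did, and 25 of 38 in the knockout-labelled cells, where 49.8% did. In limma without pairing 0 of the 38 passed in either genotype, and 11 had an unadjusted p under 0.05 in wild-type cells, against 5 in knockout-labelled cells (14.7% and 8.73% of all genes tested). The paired limma fit called 8 of the 38 higher after ischemia in wild-type cells and 0 in knockout-labelled cells, where it called 2.99% and 0.537% of all genes higher.

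The 3 immunoproteasome genes were among the 8. Psmb8, which takes the place of Psmb5, measured 8.96, 9.65 and 8.99 in wild-type control and 9.65, 10.27 and 9.76 after ischemia, a change of 0.69 ± 0.22 (adjusted p = 0.271 in limma without pairing, 0.000997 in the paired fit). Psmb10, which takes the place of Psmb7, changed by 0.65 ± 0.14 (0.242 and 0.00293), and Psmb9, which takes the place of Psmb6, by 0.54 ± 0.16 (0.268 and 0.00974). Their changes in the knockout-labelled cells were -0.06 (Psmb8), -0.09 (Psmb10) and -0.05 (Psmb9). Their mean minus the core mean rose by 0.23, 0.34 and 0.34 in the wild-type pairs and was lower by 0.12, 0.27 and 0.38 after ischemia in the knockout-labelled pairs.

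The proteasome activator genes Psme1 and Psme2, whose products form a cap that opens the core without ATP, changed by 0.70 ± 0.17 and 0.55 ± 0.15 in the wild type, with adjusted p values of 0.00266 and 0.00769 in the paired limma fit. The other activator and inhibitor genes of that list of 5 were not called. Pomp, the chaperone that matures the beta rings, changed by 0.64 ± 0.21 (paired adjusted p = 0.0266), and Psmg2, a chaperone of the alpha ring, by 0.42 ± 0.17 (0.0323). Sem1, a small lid subunit outside the symbol rule, changed by 0.49 ± 0.18 (0.0171). In the knockout-labelled cells Pomp changed by 0.52 ± 0.21, with a paired adjusted p of 0.0950 in limma, and Psme1 by 0.08 ± 0.17.

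The regulators and partners outside the particle were not called. Nfe2l1, the factor that raises proteasome genes when proteasome activity is short, changed by 0.02 ± 0.11 in wild-type and 0.09 ± 0.11 in knockout-labelled cells, and Nfe2l2, the antioxidant factor, by 0.17 ± 0.12 and 0.09 ± 0.12. None of the 9 regulator genes, the 8 shuttle and segregase genes or the 6 genes of proteasome partners passed in the paired limma fit in either genotype. Usp14, a deubiquitinase bound to the base, changed by 0.13 ± 0.17 in wild-type and 0.47 ± 0.17 in knockout-labelled cells (paired adjusted p = 0.0784), and Uba6, an enzyme that activates ubiquitin, by 0.19 ± 0.21 and 0.47 ± 0.21 (0.0727).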

How the data were processed

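The authors deposited 1 log2 signal for each probe set and array. Expression Console 1.1 (Affymetrix) and RMA are named in the submitters' processing notes. The genome build of the array's annotation is not stated. RMA normalizes arrays by quantiles, so differences in total RNA cannot be seen; precision is set by the number of arrays.

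Of 35557 probe sets, 21789 had 1 gene symbol, and 21698 of those were brought to current symbols through Entrez identifiers. Genes whose mean did not exceed the 30th percentile of probe sets (5.36 log2) were dropped as dim. A model with 1 mean per group over all 12 arrays was fitted with limma 3.58.1 in R 4.3.3 (lmFit, eBayes), and p-values were adjusted by Benjamini-Hochberg over 15273 genes. A fold is 2 to the power of the log2 difference. The steps were tested on simulated data.

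Deviations of same-numbered arrays from their group means had correlations of 0.48 to 0.73 (wild type) and 0.32 to 0.49 (knockout-labelled), each above a minimum of 0.1, so numbers were taken to pair arrays within a genotype. Differently numbered arrays had correlations of -0.62 to 0.40 and of -0.44 to 0.22, so some of these also lay above the minimum. Between genotypes numbers were not taken to pair arrays, since values went down to -0.33. For genotype differences the paired fit therefore gave the arrays of a within-genotype pair a shared correlation of 0.34 (limma, duplicateCorrelation), without a block. This pairing rests on the data, not on the labels.

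The genes and lists were chosen with earlier results of these data known. The rule for named genes takes every gene called in a comparison, the 4 largest rises, the 4 largest falls and the 4 smallest p. It also takes the 3 highest and 3 lowest signals, the cutting subunits and Psmc3ip. In the comparisons between genotypes not every gene that the rule takes is named. Up to 4 genes of each pathway list are named by p, and others named were chosen after their values were seen. Alternatives were the block, the arrays in the fit, the dim filter, normalization, moderation and leaving out each array.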

Additional observations from a re-analysis of the deposited data

Results flagged for a closer look

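Proteasome and pathway genes were flagged where all 3 pairs moved one way in one genotype and all the other way in the other. Genes whose difference of changes passed in limma were flagged too. Psmd4, the ubiquitin receptor of the base, was higher after ischemia in 3 of 3 wild-type pairs, by 0.10, 0.29 and 0.46 (25.8% of all genes tested). It was lower in 3 of 3 knockout-labelled pairs, by 0.08, 0.11 and 0.11 (18.7% of all genes). The share of all genes that did both was not counted. The difference of the changes, knockout-labelled minus wild type, was -0.38 (adjusted p = 0.9996 in limma without pairing and 0.493 in the paired fit).

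The changes of Psmb8 differed by -0.76 and those of Psmb10 by -0.74 between genotypes, both knockout-labelled minus wild type, with adjusted p values of 0.0234 and 0.0469 in the paired limma fit and 0.9996 in limma without pairing. Akirin2, which is known to carry proteasomes into the nucleus, was higher after ischemia in 3 of 3 wild-type pairs (25.8% of all genes tested). It was lower in 3 of 3 knockout-labelled pairs (18.7% of all genes). Some of these steps were very small. Wild-type replicate 2 measured 9.098 in control and 9.104 after ischemia. The knockout-labelled mean was 9.09 ± 0.04 (SD) in control and 9.06 ± 0.04 after ischemia. The difference of the changes was -0.22 (adjusted p = 0.676 in the paired limma fit).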

How the results depend on the processing

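Without the pair block 0 of the 37 genes passed in limma in any comparison, and leaving out 1 array changed that in 1 case: without wild-type control replicate 2, Psma7 and Psmb2 passed in the wild type (2 genes, with 79 over all genes tested). With the replicate block within genotype 3 wild-type changes and 1 knockout-labelled change passed; leaving out 1 pair at a time gave 0 to 5 and 0 to 4 genes, while the calls over all 15273 genes tested ran from 143 to 767 and from 2 to 753 (570 and 99 with all pairs). Of the alternatives chosen after seeing the data, the block with quantile normalization gave 0 and 1 (384 and 120 over all genes), and the block with a trended robust moderation 6 and 3 (668 and 275). A replicate block of 3 levels over all arrays gave 0 in each comparison. Neither this block nor the shared correlation within pairs changed a call of these genes between genotypes.

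The core median in the wild type was 0.35 and ranged from 0.25 to 0.48 when 1 array was left out; the regulatory median, 0.13, ranged from 0.068 to 0.21. Quantile normalization gave 0.26 and 0.038, and the difference of the class means was 0.20, against 0.19 without it. The difference of class means ranged from 0.14 to 0.26 (wild type) and from -0.01 to 0.01 (knockout-labelled). Between genotypes in control cells it ranged from 0.058 to 0.18, the core median from -0.015 to 0.23 and the regulatory median from -0.13 to -0.0087. After ischemia the core median between genotypes ranged from -0.13 to -0.011 and the regulatory median from -0.031 to 0.035. Of the difference of the changes, the class difference ranged from -0.26 to -0.14, the core median from -0.31 to -0.090 and the regulatory median from -0.034 to 0.15; the lower ends came without wild-type control replicate 2, the upper ends without wild-type control replicate 3 (class difference and core median) or wild-type ischemia replicate 2 (regulatory median), and the cause was not tested. In the knockout-labelled cells the core median ranged from 0.16 to 0.19 and the regulatory median from 0.14 to 0.18, and quantile normalization gave 0.13 and 0.078.

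The change of Psmb3 in the knockout-labelled cells, 0.03, turned to -0.043 with quantile normalization, with or without the block. It ranged from -0.029 to 0.097 when 1 array was left out, and with the block it was -0.019 without knockout-labelled pair 1 and -0.029 without pair 3. RMA values hold no absolute RNA level, and small groups leave wide intervals on every single gene.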
